A study of Mus musculus with 3 samples.

Results

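The collagen genes were taken as all gene names of the form Col, a type number, a and a chain number among the non-control probes of 3 two-colour Agilent whole mouse genome arrays. They numbered 39 genes with 78 probes, of 27975 gene names with 41174 probes on the arrays. The ovaries came from 10-week-old C57Bl/6J females killed 3.5 days post copulation at zeitgeber time (ZT) 12, the hour of lights off. The conditional knockout (cKO), Bmal1fxfxCresf-1, carried floxed alleles of the clock gene Bmal1 together with Cre under control of the sf-1 promoter. The control, Bmal1fxfx, carried the same floxed alleles without Cre. Each array held RNA pooled from 3 cKO animals in cy3 and RNA pooled from 3 control animals in Cy5, with different pools on each array, so that 9 animals of each genotype entered as 3 pools. Dyes were not exchanged between genotypes on any array, so an effect of dye cannot be told apart from an effect of genotype. Steroidogenic factor 1 is made in steroid-forming cells of the ovary and also in other organs, so the ratios compare whole ovaries of which only some cells were targeted.

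Collagens are proteins of 3 chains wound into a triple helix, built on repeats of glycine followed by a pair of other residues. Fibrillar collagens (types I, II, III, V, XI, XXIV and XXVII) assemble into the fibrils of connective tissue, and type V chains sit within type I fibrils and limit their width. Type IV chains form the sheet of basement membranes, which in the ovary surround follicles and vessels. The other types link fibrils, form beaded filaments or span cell membranes. The follicle wall and the corpus luteum are rebuilt in each cycle, and their collagens are cut, lost and laid down again as follicles burst and luteal tissue is vascularised.

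The glycine repeat could be read in the probes themselves, and 3 probes lay wholly within a triple helix. They are shown because they show what the array measured for these chains; capitals mark the glycine codons, 6, 6 and 7 in number.
Col11a2: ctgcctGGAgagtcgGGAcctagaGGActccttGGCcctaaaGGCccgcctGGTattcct
Col5a1: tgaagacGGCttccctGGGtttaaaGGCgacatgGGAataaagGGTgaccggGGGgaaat
Col5a3: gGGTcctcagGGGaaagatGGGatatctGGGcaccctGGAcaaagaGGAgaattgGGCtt
Each of these is 60 bases long and differs from the probe read for its gene below, which was the brightest one. The Col11a2 and Col5a1 probes gave mean log2 ratios of 0.21 and 0.64. Both passed the background filter through cKO alone, with 3 cKO arrays but 1 control array well above background. The Col5a3 probe did not pass the filter and was not used.

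A probe was kept if 1 or both genotypes gave a signal well above background on every array, and each gene was read by its brightest kept probe. By this rule 32 of the 39 collagen genes were tested, through 50 kept probes: all 11 fibrillar genes, all 6 type IV genes and 15 of 22 others. Col6a3, Col9a1, Col9a3, Col10a1, Col19a1, Col25a1 and Col28a1 had no kept probe and have no ratio here. Of the ovary's own markers, 9 of 9 oocyte, 7 of 7 granulosa and 8 of 8 luteal genes were tested. No collagen probe read here was saturated in either channel. All ratios below are log2 of cKO over control, so values above 0 are a higher signal in cKO, and the spread is over 3 arrays. Over all genes tested the ratios of arrays 1 and 2 correlated at r = 0.493, those of arrays 1 and 3 at 0.0983 and those of arrays 2 and 3 at -0.162, over 17852 genes that share arrays and dyes. The Bmal1 probe (Arntl) gave 0.26, 0.10 and -0.28 on arrays 1 to 3. Which part of the gene was floxed is not given in the sources used here, so this probe does not check the deletion.

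The fibrillar collagens Col5a3, Col5a1 and Col1a1 had the highest mean ratios of all collagens, at 1.41 ± 0.89, 1.21 ± 0.16 and 1.01 ± 0.41 (SD, n = 3 arrays). No type IV gene and no gene of the other types reached 0.6. No collagen passed limma's test after Benjamini-Hochberg adjustment over 17852 genes: 0 of 32 were past an adjusted p of 0.05 in either direction, against 0.151% of all genes tested that were higher and 0.146% that were lower in cKO. At an unadjusted p under 0.05, 5 collagens were higher (2.98% of all genes) and 0 were lower (3.02% of all genes). These 5 were Col1a1, Col2a1, Col3a1, Col5a1 and Col5a3, all fibrillar. The count depended on the processing: over 10 alternatives it was 2 to 8 higher and 0 to 4 lower. With normexp background correction and loess normalisation in place of the deposited ones it was 7 higher, all fibrillar (Col1a2 and Col5a2 joined the 5), and 1 lower (Col9a2). With the mean over kept probes Col1a1 and Col2a1 left it, for 3 higher. Without array 3 it was 8 higher, among them Col6a1 and Col6a2, and 4 lower (Col11a1, Col13a1, Col14a1 and Col17a1). The number of all 17852 genes at an unadjusted p under 0.05 in limma's test, higher or lower, also changed. It was 1071 in the main processing, 2203 with normexp and loess, 1056 with the mean over kept probes and 3285 without array 3. The larger collagen counts with normexp and loess and without array 3 thus came with larger counts over all genes. Ratios were above 0 on all 3 arrays for 8 of 32 collagens (11.5% of all genes): the same 5 with Col11a2, Col15a1 and Col23a1. The Col11a2 probe was kept through cKO alone, which favours ratios above 0. Ratios were below 0 on all 3 arrays for 1, Col9a2 (12.6% of all genes).

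**Figure D1:**
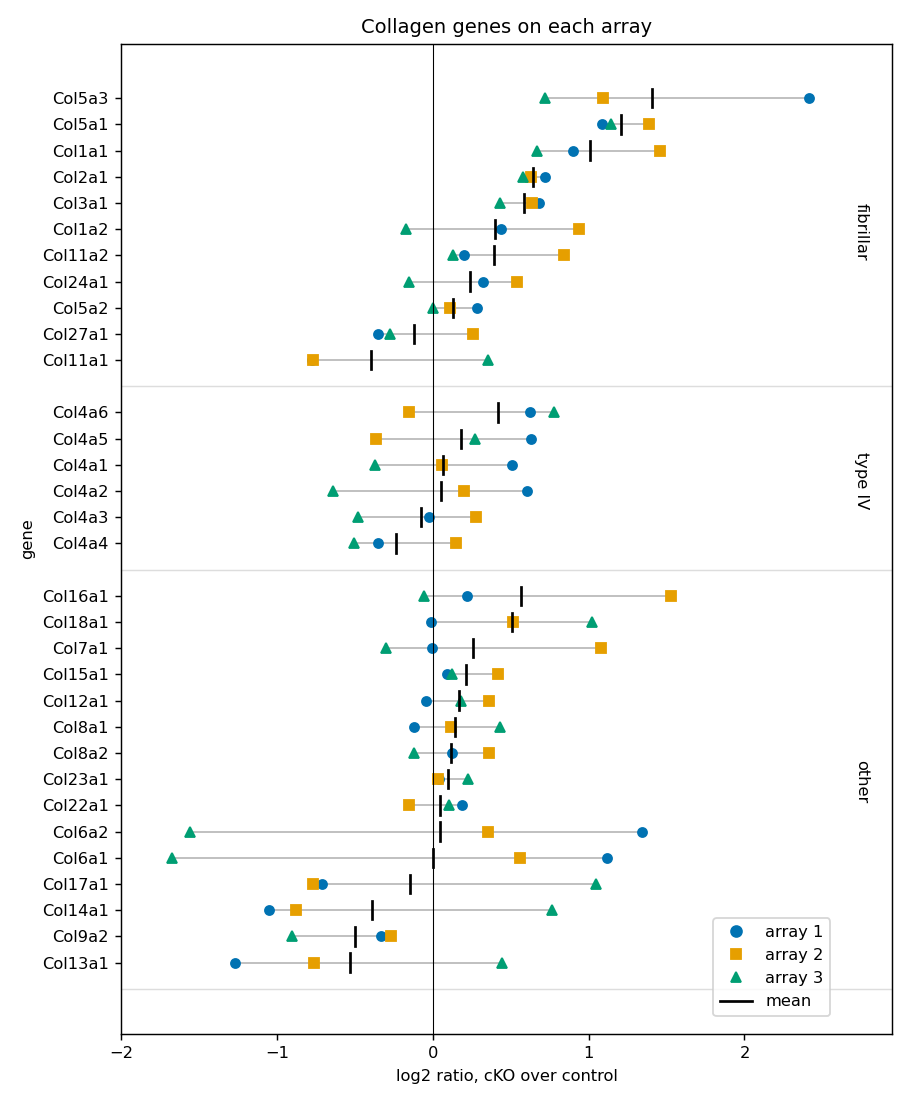
Log2 ratio of cKO over control (x axis) of the 32 tested collagen genes (y axis) on arrays 1, 2 and 3 (circles, squares and triangles), with the mean as a black bar, grouped into fibrillar, type IV and other collagens. Col5a3, Col5a1 and Col1a1 lie right of 0 on every array, and the 2 type VI genes Col6a1 and Col6a2 have the widest spread.

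Col5a1, the type V chain common to most type V molecules, had the lowest adjusted p of the collagens. Its processed signal was 8314, 6089 and 8048 in cKO pools and 3926, 2325 and 3640.1 in control pools on arrays 1 to 3. The genotypes did not overlap and cKO was higher by a like amount on each array, with ratios of 1.08, 1.39 and 1.14. The mean was a 2.31-fold higher signal in cKO, with an adjusted p of 0.154 in limma's test. The helix probe of Col5a1 shown above gave 0.83, 0.43 and 0.65, which are also all above 0 but smaller. That probe was kept through cKO alone, which favours ratios above 0. It was well above background on 1 control array, with control signals of 29.3, 29.4 and 29.3. With normexp and loess its mean was 0.14.

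Col5a3, a type V chain of narrower distribution, had the largest mean and an uneven one. Its signal was 1339, 389 and 462 in cKO and 252, 183 and 281 in control, giving ratios of 2.41, 1.09 and 0.72. Array 1 stood highest, and without it the mean was 0.90. The adjusted p in limma's test was 0.383 over the 3 arrays. It was 0.0237 without array 2 (mean 1.57) and 0.0113 with the slide as a block (mean 1.66). Both settings give array 1 more weight. They also raised the number of all genes past the threshold from 53 to 270 without array 2 and to 227 with the block. Arrays 2 and 3 shared a slide that did not hold array 1. Col5a2, the partner chain of Col5a1 in the most common type V molecule, gave 0.28, 0.11 and -0.002. Its mean of 0.13 ± 0.14 was smaller than its spread. With normexp and loess it gave 0.52, 0.32 and 0.26, a mean of 0.37 ± 0.14 that exceeded its spread (adjusted p = 0.381 in limma's test).

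Col1a1 and Col1a2 encode the 2 chains of type I collagen, the main fibril protein of connective tissue. Col1a1 signal was 28889.7, 23676 and 22152 in cKO and 15492, 8622 and 13962 in control. The genotypes did not overlap, with ratios of 0.90, 1.46 and 0.67, a mean of 1.01 and an adjusted p of 0.344 in limma's test. Col1a2 signal was 35557, 30015 and 24835 in cKO and 26323, 15700.1 and 27952 in control. Its ratios were 0.43, 0.93 and -0.17, above 0 on arrays 1 and 2 and below 0 on array 3, so its genotypes overlapped and its mean of 0.40 ± 0.55 was within the spread. With normexp and loess in place of the deposited normalisation its ratios were 0.71, 1.20 and 0.13, all above 0, with a mean of 0.68 ± 0.53 (adjusted p = 0.365 in limma's test).

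Col3a1, the chain of type III collagen found with type I in soft tissue, was among the brightest probes and varied little. Its signal was 36732, 31429 and 35829 in cKO and 22906.5, 20212 and 26629 in control, with ratios of 0.68, 0.64 and 0.43. Its mean was 0.58 ± 0.14, with an adjusted p of 0.711 in limma's test. Col2a1, known as the collagen of cartilage, gave signals of 8175, 7250.3 and 9454 in cKO and 4958, 4692 and 6336 in control. Its ratios of 0.72, 0.63 and 0.58 had the smallest SD of the collagens, 0.07, around a mean of 0.64 (adjusted p = 0.607 in limma's test).

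Of the other fibrillar chains, Col11a2 gave 0.20, 0.84 and 0.13 from a dim probe that was well above background on 2 of 3 control arrays. That probe was kept through cKO alone, which favours ratios above 0, and its mean was 0.14 with normexp and loess. Col24a1 gave 0.32, 0.54 and -0.15. Col11a1, which joins type II and type V fibrils, gave -0.78, -0.77 and 0.35. These 3 chains had means of 0.39, 0.24 and -0.40 with SDs of 0.39, 0.35 and 0.65, and no mean exceeded its SD. Col27a1 gave -0.35, 0.26 and -0.27, with a mean of -0.12 ± 0.33. Taking the class as a whole, 9 of 11 fibrillar means were above 0, against 47.0% of all genes tested. Col11a2, kept through cKO alone, is among the 9.

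**Figure D2:**
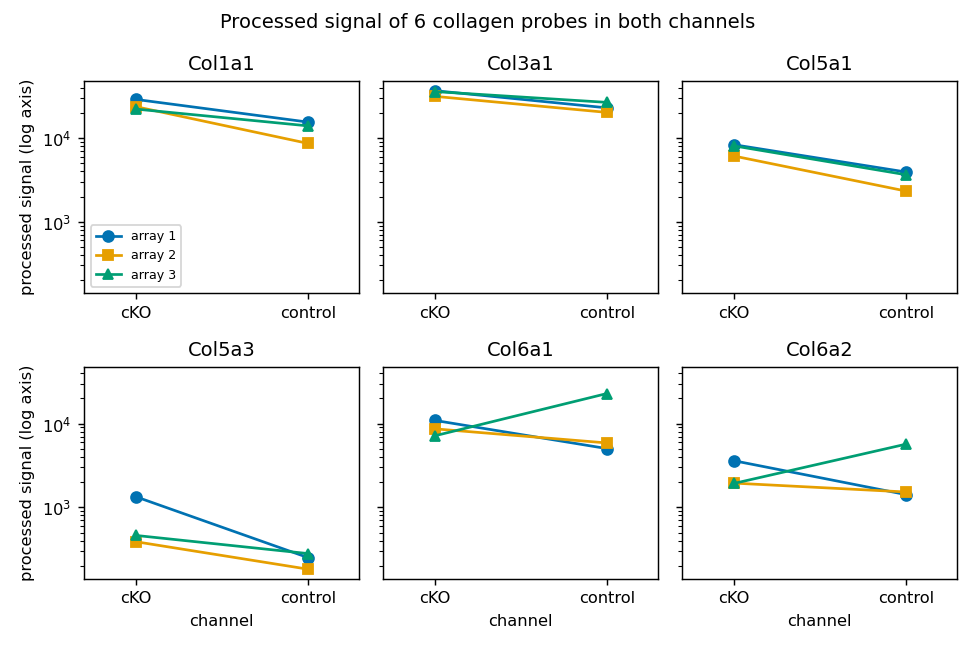
Processed signal on a log axis (y axis) in the cKO and control channels (x axis) of arrays 1, 2 and 3 for 6 collagen probes. For Col1a1, Col3a1, Col5a1 and Col5a3 the cKO point is the higher one on each array; for Col6a1 and Col6a2 it is the higher one on arrays 1 and 2 and the lower one on array 3, where the control signal was 22866 and 5679.

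The 6 type IV genes lie in the genome as 3 pairs of neighbours. Read by their brightest probes, the members of a pair had like ratios on most arrays. Col4a1 and Col4a2, which form the most widespread type IV network, gave 0.51, 0.06 and -0.37 and 0.60, 0.20 and -0.64. Both signs changed between arrays 1 and 3, and the means were 0.06 ± 0.44 and 0.05 ± 0.64. In signal, Col4a1 had 9693, 7069 and 9359 in cKO and 6817, 6802 and 12103 in control, so the genotypes overlapped. Their promoter windows in the RefSeq table (GRCm38.p6), which run from 250 bases before the start to 50 after it, overlap by 78 bases.

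Col4a3 and Col4a4, chains of the network known from the kidney filter, gave -0.03, 0.28 and -0.48 and -0.35, 0.15 and -0.51. Col4a5 and Col4a6, neighbours on the X chromosome, gave 0.63, -0.36 and 0.27 and 0.62, -0.15 and 0.78. The second kept probe of Col4a4 gave -0.63, 0.22 and 0.78, and that of Col4a6 gave 1.37, 0.08 and -0.50. On array 3 both had the other sign from the brightest probe of the gene. The second kept probe of Col4a3 gave 0.27, 0.40 and -0.43. The likeness within these pairs therefore depended on the probe read. No type IV gene had ratios of one sign on all 3 arrays. The means of the 6 genes ran from -0.24 for Col4a4 to 0.42 for Col4a6, each smaller in size than its own SD, which ran from 0.34 to 0.64.

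Among the other types, Col9a2, a chain of type IX collagen that binds the surface of fibrils, was the one gene with a mean of at least 0.5 in size and ratios of one sign. Its signal was 2158, 2231 and 3772 in cKO and 2715, 2689 and 7066 in control. The cKO value was the lower one on each array, with ratios of -0.33, -0.27 and -0.91 and a mean of -0.50 ± 0.35. Its adjusted p was 0.971 in limma's test.

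The beaded filament chains Col6a1 and Col6a2, named here after their values were seen, had the largest spread. Col6a1 signal was 10925, 8662 and 7156 in cKO and 5034, 5879 and 22866 in control. Col6a2 signal was 3606, 1948 and 1930.04 in cKO and 1421, 1526 and 5679 in control. On array 3 the control pool was far above the other control pools for both genes. The ratios were 1.12, 0.56 and -1.68 for Col6a1 and 1.34, 0.35 and -1.56 for Col6a2. Their means were 0.0004 ± 1.48 and 0.05 ± 1.47, so the mean of 3 arrays describes none of them. Arrays 2 and 3, which share a slide, gave ratios of opposite sign.

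The remaining 12 tested genes of other types had means between -0.53 (Col13a1) and 0.56 (Col16a1). Col16a1, a fibril-associated chain, gave 0.22, 1.53 and -0.06, so array 2 carried its mean. Col18a1, a basement membrane collagen whose end fragment is endostatin, gave -0.01, 0.52 and 1.02. Col13a1 and Col14a1 gave -1.27, -0.76 and 0.44 and -1.05, -0.88 and 0.76. They were below 0 on arrays 1 and 2 and above 0 on array 3, the opposite of the type VI genes. These 4 genes were also chosen after their values were seen. Of this class, Col15a1 and Col23a1 alone had all ratios above 0, with means of 0.21 ± 0.18 and 0.10 ± 0.11. The files also hold 3 collagens under older names that the choice by name left out: Emid2 (now Col26a1), 1110001D15Rik (Col6a4) and E330026B02Rik (Col6a6), with means of 0.07, -0.08 and -0.11.

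The median ratio of the 11 fibrillar genes was 0.43, 0.64 and 0.35 on arrays 1, 2 and 3. That of the 6 type IV genes was 0.56, 0.10 and -0.42, and that of the 15 others was -0.0046, 0.35 and 0.12. The fibrillar median was above 0 on each array, the type IV median only on arrays 1 and 2. Taken over the gene means, the medians were 0.40 for fibrillar, 0.06 for type IV and 0.10 for other collagens, against -0.02 for all genes tested. With types VII, XV and XVIII counted with type IV, that median was 0.18 and that of the others 0.05. The fibrillar median then exceeded it by 0.22, against 0.34 for type IV alone. The fibrillar median exceeded the type IV median by 0.54 and 0.78 on arrays 2 and 3 but not on array 1, where the difference was -0.12. The order of the classes was therefore not the same on each array, and no test was made of the difference, since genes of a class are not replicates. Over all 32 collagens 24 means were above 0, with a median of 0.14.

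Array 3 also differed from arrays 1 and 2 in markers of other cells. Of the 10 smooth muscle genes, 7, 10 and 0 were above 0 on arrays 1, 2 and 3, with medians of 0.19, 0.89 and -1.17. Of the 10 macrophage genes, 8, 9 and 1 were above 0, with medians of 0.83, 0.98 and -1.06. These lists were highest on arrays 1 and 2 and lowest on array 3, as were Col4a1, Col4a2, Col6a1, Col6a2 and Col1a2, among others. Of the fibrillar genes, Col1a1, Col2a1, Col3a1, Col5a2, Col5a3, Col11a2 and Col24a1 were also lowest on array 3. Col5a2 and Col24a1 were below 0 there, and the rest of these were above 0. Col5a1, Col11a1 and Col27a1 were not lowest on array 3. Of the 12 fibroblast markers that are not collagens, all tested, 7, 10 and 5 were above 0, with medians of 0.20, 0.61 and -0.12. Of the 11 fibrillar collagens, 9, 10 and 7 were above 0 on arrays 1, 2 and 3. Their median of 0.35 on array 3 was the value of Col11a1, which was below 0 on arrays 1 and 2. The 9 markers of surface and oviduct epithelium had medians of 1.38, -0.41 and -0.42, so that list stood apart on array 1, as did Col5a3. The 7 granulosa markers had medians of -0.42, -0.23 and 0.46, below 0 on arrays 1 and 2 and above 0 on array 3, as were Col11a1, Col13a1, Col14a1 and Col17a1. The granulosa list was split on array 3: 1, 1 and 4 of its 7 genes were above 0 on arrays 1, 2 and 3. Amh (-1.28), Inha (-0.72) and Fshr (-0.07) were below 0 on array 3. The 8 endothelium markers had medians of -0.08, -0.01 and -0.27, the 8 luteal markers 0.24, -0.33 and -0.23, and the 9 oocyte markers -0.21, -0.06 and -0.09. The 3 tested theca markers of 4 had medians of 0.15, 1.02 and -0.01. In RNA of whole ovaries, more cells of a type and more RNA per cell cannot be told apart, and the part of these cell types in the collagen ratios was not tested.

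**Figure D3:**
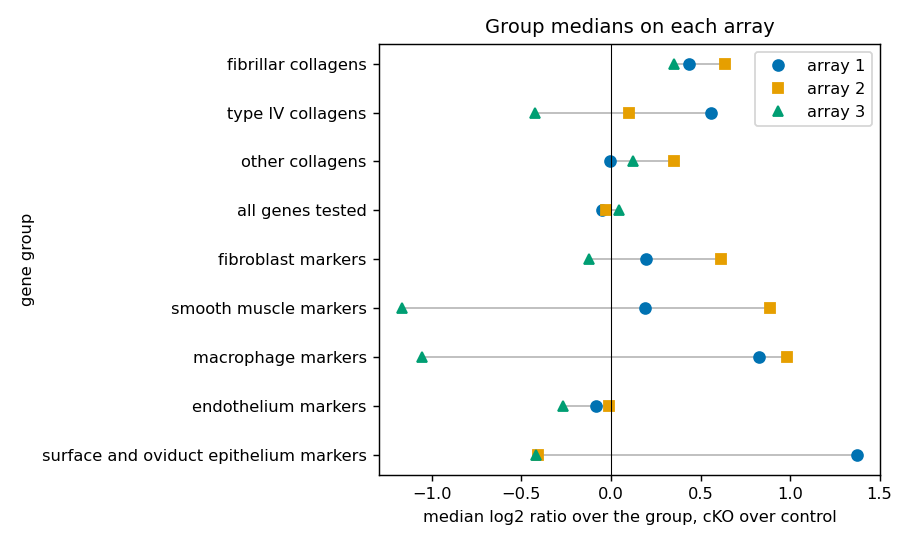
Median log2 ratio of cKO over control (x axis) of gene groups (y axis) on arrays 1, 2 and 3 (circles, squares and triangles). The fibrillar collagens lie between 0.35 and 0.64 on every array, whereas the type IV collagens, smooth muscle and macrophage markers lie above 0 on arrays 1 and 2 and below 0 on array 3.

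For 17 collagen genes more than 1 probe was kept, which gives a second reading of the same RNA on the same arrays. Of the 18 further probes, 15 had the sign of the brightest probe. Those of Col24a1, Col11a2 and Col5a1 among them were kept through cKO alone. They were well above background on 0, 1 and 1 of 3 control arrays, and such a choice favours ratios above 0. The share of one sign among further probes of all genes is not given here. The other 3 further probes, those of Col2a1, Col4a3 and Col4a4, had the other sign. The sharpest case was Col2a1, whose 2 kept probes share 40 bases. They are shown because the values differ over nearly the same stretch; capitals mark the shared bases, and the lower one is the brightest probe.
Col2a1 dim probe: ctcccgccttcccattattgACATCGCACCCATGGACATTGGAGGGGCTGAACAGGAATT
Col2a1 brightest probe: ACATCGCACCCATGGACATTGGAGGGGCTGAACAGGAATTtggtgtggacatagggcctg
The dim probe had signals of 69, 82 and 119 in cKO and 64, 89 and 121 in control, far below those of the brightest probe. The dim probe gave 0.10, -0.11 and -0.03, with a mean of -0.01 ± 0.11, against 0.64 ± 0.07 for the brightest probe. The difference was larger than the spread of either. The mean over both probes was 0.31.

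A further probe of Col1a1, shown here because its array 3 value opposes that of the gene's brightest probe, has the sequence below, in which no frame holds a stop codon.
Col1a1: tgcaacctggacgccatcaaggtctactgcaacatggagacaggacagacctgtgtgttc
It gave 1.48, 0.76 and -1.63, with signals of 1718, 996 and 922 in cKO and 616, 588 and 2855 in control. Its order over arrays was that of Col6a1 and Col6a2, with a high control pool on array 3, whereas the brightest Col1a1 probe gave 0.67 there. In turn, the second probe of Col6a2 gave 1.03, 0.75 and 0.56 and did not have the low array 3 value of the first. The mean over all kept probes was 0.61 for Col1a1 and 0.41 for Col6a2. The second probe of Col3a1 gave 0.41, -0.02 and 1.05, and its mean was 0.05 with normexp and loess. It was far dimmer than the first, with signals of 39, 39 and 79 in cKO and 29, 40 and 38 in control. The second probes of Col4a1 and Col4a2, like the first ones, had their lowest value on array 3. They gave 0.74, 0.16 and -0.54 and 0.43, 0.70 and -0.74.

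**Figure D4:**
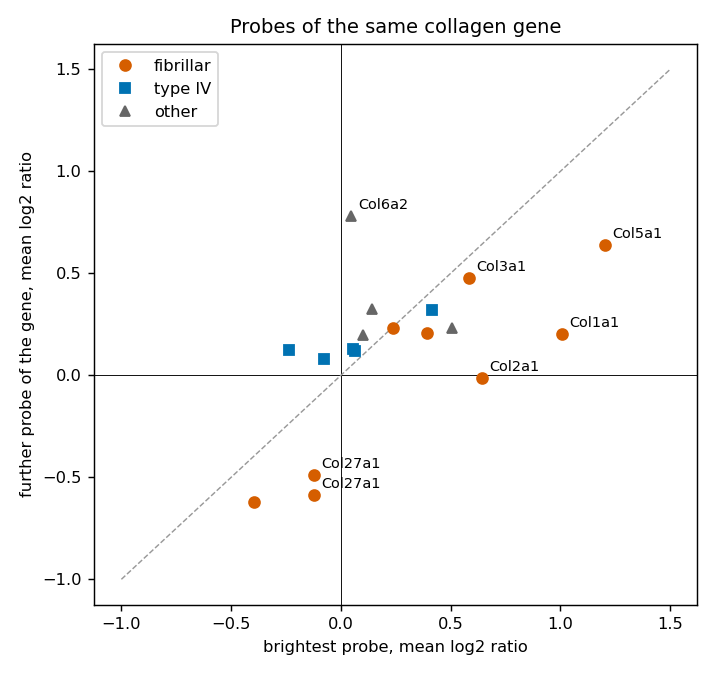
Mean log2 ratio of cKO over control of each gene's brightest probe (x axis) against that of its further kept probes (y axis), for 18 further probes of 17 genes; the dashed line marks equal values. Col1a1, Col2a1 and Col5a1 lie below the line and Col6a2 lies above it.

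The genes that modify, process and bind collagen were read from 5 lists, and none of their members passed limma's adjusted threshold in either direction. The counts of each list stand against those of all genes tested, of which 47.0% had a mean above 0, 11.5% had all ratios above 0, and 2.98% were higher and 3.02% lower at an unadjusted p under 0.05. Of 19 tested genes that modify and fold the chains, 9 means were above 0, the median was -0.0094, 3 had all ratios above 0, and 1 was higher and 0 were lower at an unadjusted p under 0.05. The 2 highest were Colgalt2, which adds galactose to hydroxylysine (0.80 ± 0.39), and P3h2, a prolyl 3-hydroxylase (0.47 ± 0.61). The 2 lowest were P3h4 (-0.56 ± 0.44), a partner of lysyl hydroxylation, and P4hb (-0.27 ± 0.53), a subunit of prolyl 4-hydroxylase. Of 12 tested genes of procollagen processing and cross-linking, 8 means were above 0, the median was 0.19, 5 had all ratios above 0, and 2 were higher and 0 lower at an unadjusted p under 0.05.

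The procollagen protease gene Adamts3 gave 2.80, 0.90 and 1.34, a mean of 1.68, from a probe well above background on 2 of 3 control arrays. That probe was kept through cKO alone, and its mean was 0.73 with normexp and loess. Adamts3 is among the genes counted above with all ratios above 0 and as higher at the unadjusted p. Lox, the enzyme that cross-links fibrils, gave 2.66, 0.16 and 0.73, a mean of 1.18 ± 1.31. Array 1 was the highest for both, as for Col5a3. The 2 lowest of that list were the procollagen protease enhancer Pcolce2 (-0.23 ± 0.42) and the protease Adamts14 (-0.17 ± 0.17).

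Of 9 tested collagen receptors, 7 means were above 0 with a median of 0.12, and 0 were past an unadjusted p of 0.05. Itga10, an integrin subunit, had the highest mean (0.89 ± 1.68) from a probe well above background on 1 of 3 control arrays. That probe was kept through cKO alone, and its mean was 0.05 with normexp and loess. Ddr2, a kinase that binds fibrillar collagen, followed Itga10 (0.42 ± 0.97). Itga11 (-0.37 ± 0.50) and the endocytic receptor Mrc2 (-0.005 ± 0.83) were the lowest. Of 12 tested fibril partners, 7 means were above 0 with a median of 0.18, and 1 was higher and 0 were lower at an unadjusted p under 0.05. Comp, a fibril-binding glycoprotein, gave 0.005, 1.40 and 1.84 (mean 1.08), and Tnxb, a tenascin, gave 0.69, 1.60 and -0.14 (mean 0.72). Lum, a proteoglycan on fibrils, gave -0.65, -0.31 and -0.17 (mean -0.38), and Fbn1, the fibrillin, had a mean of -0.25 ± 0.36.

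Of 16 tested basement membrane partners, 6 means were above 0 with a median of -0.02, and 0 were higher and 1 was lower at an unadjusted p under 0.05. Smoc1, a calcium-binding matrix protein, gave -0.86, -0.35 and -1.24 (mean -0.82), and the laminin chain Lamc3 followed at -0.56 ± 0.45. The Lamc3 probe was kept through control alone, which favours ratios below 0, and its mean was -0.14 with normexp and loess. Hspg2, the proteoglycan perlecan, gave 0.36, 0.68 and -0.17, with a mean of 0.29 ± 0.43. The median of all genes tested was -0.02 as well.

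BMAL1 with CLOCK binds the E-box, whose canonical letters CACGTG are their own reverse complement. In the RefSeq promoter table, 31 collagen genes had 34 windows of 300 bases, of which 0 held these letters. Of all 32851 windows, 2349 held them, or 7.15%. This says only that the letters are not in those windows.

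Across the main processing and 10 alternatives, 10 of 11 fibrillar genes kept the sign of their ratio, Col27a1 being the exception. Col11a2, kept through cKO alone, was tested in 9 of the alternatives. One sign was also kept by 1 of 6 type IV genes (Col4a6) and 6 of 15 others. The share of all genes that kept their sign is not given here, so these counts have no background beside them. The alternatives reuse the same arrays, and changes of the background filter left these ratios unchanged wherever the gene was tested. Col5a1 ranged from 0.92 to 1.46 over these settings, Col5a3 from 0.90 to 1.75, Col1a1 from 0.61 to 1.18, Col2a1 from 0.31 to 0.91 and Col3a1 from 0.53 to 0.70. The mean over kept probes gave the lowest value for Col5a1, Col1a1, Col2a1 and Col3a1, and leaving out array 1 gave the lowest for Col5a3. Of the other fibrillar genes, Col1a2 ranged from 0.13 to 0.81, Col5a2 from 0.05 to 0.57, Col11a2 from 0.14 to 0.52, Col24a1 from 0.08 to 0.43 and Col11a1 from -0.77 to -0.21. Among the other classes, Col4a6 ranged from 0.08 to 0.70 and Col9a2 from -0.65 to -0.30.

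**Figure D5:**
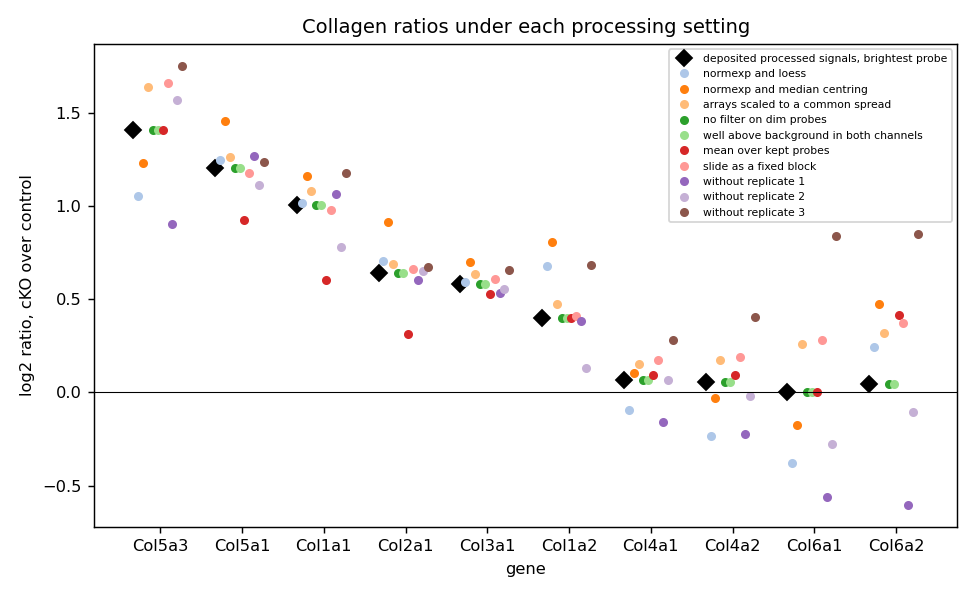
Mean log2 ratio of cKO over control (y axis) of 10 collagen genes (x axis) under the main processing (diamonds) and 10 alternatives (coloured points). Col5a3, Col5a1, Col1a1, Col2a1, Col3a1 and Col1a2 stay above 0 in all of them, whereas Col4a1, Col4a2, Col6a1 and Col6a2 fall on both sides of 0.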

How the data were processed

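RNA of mouse ovary was amplified and labelled per the labels' protocols with a kit for low RNA input. The spots' intensity values were made with Agilent Feature Extraction, version 9.1.3.1 per the file headers, which also record background correction, detrending and dye normalisation (linear, then LOWESS) of the processed signals. The deposited log10 ratios are of red (Cy5, control) over green (cy3, cKO), and were turned to log2 of cKO over control. The series' value table holds the same deposited log10 ratios (largest difference 0). The genotype labels of arrays 2 and 3 carry a Cre name that ends in the array's own number; they were grouped by title and design text.

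Outlier-flagged spots were dropped (13, 4 and 0 on arrays 1 to 3), and repeated spots of a probe were averaged. Log2 ratios were tested against 0 with limma 3.58.1 under R 4.3.3 (lmFit and eBayes, intercept only, two-sided). P-values were adjusted by Benjamini and Hochberg's method over 17852 genes, at a threshold of 0.05; the fit was first tested on simulated data. P-values reflect the spread over 3 arrays of the ratio between paired pools, which limma moderated by the spread of all genes tested. Between 62.9% and 69.1% of probes were well above background per channel, and the number of arrays limits precision. Members were read by the files' gene names, other probes through RefSeq names of GRCm38.p6; the files' build is not given in the sources used here. All fibrillar and type IV genes were named, other members where p or a mean of at least 0.5 with one sign singled them out, and the 2 highest and 2 lowest of each companion list, of which 1 gene is not reported here. The members and lists were chosen with earlier results of these data known.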

Additional observations from a re-analysis of the deposited data

How the results depend on the processing

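Of the 10 alternatives, slide as a fixed block was chosen after seeing the data, because a random slide block could not be estimated for any gene with 3 arrays. Arrays 2 and 3 alone are the same as leaving out replicate 1. Genes past the threshold among all tested numbered 53; they were 31 with normexp and loess, 1 with normexp and median centring, 6 with arrays scaled to a common spread, 0 with no filter on dim probes (limma; 1840 at an unadjusted p under 0.05), 227 with slide as a fixed block and 27 to 270 leaving out each replicate. Collagens past the threshold numbered 0, and 1 (Col5a3) with slide as a fixed block; leaving out each replicate gave 0 to 1, the 1 being Col5a3 without replicate 2. The fibrillar median of 0.40 became 0.59 with normexp and loess and 0.70 with normexp and median centring, and 0.17 to 0.66 leaving out each replicate, lowest without replicate 2. With normexp and loess the sign of the mean changed for Col4a1 (-0.094), Col4a2 (-0.24), Col6a1 (-0.38), Col8a1 (-0.038), Col8a2 (-0.16), Col23a1 (-0.0016) and Col27a1 (0.12). With normexp and median centring it changed for Col4a2 (-0.029), Col4a4 (0.18), Col6a1 (-0.17), Col14a1 (0.087) and Col27a1 (0.27), and with the mean over kept probes for Col4a3 (0.0028). Leaving out each replicate gave values on both sides of 0 for Col4a1 (-0.16 to 0.28), Col4a2 (-0.22 to 0.40), Col4a3 (-0.25 to 0.13), Col4a5 (-0.048 to 0.45), Col6a1 (-0.56 to 0.84), Col6a2 (-0.60 to 0.85), Col7a1 (-0.15 to 0.54), Col8a1 (-0.0041 to 0.27), Col8a2 (-0.0014 to 0.24), Col17a1 (-0.74 to 0.17) and Col22a1 (-0.024 to 0.15). The cause was not tested. The main test is itself the paired one, since it takes the ratio of the 2 pools on each array, and no further pairing was fitted.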
